A study of Mus musculus with 4 samples.

Results

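Inflammatory genes, 10 in all, were followed in hematopoietic stem and progenitor cells of the mouse fetal liver (FL) with and without *Pich*. They are the interleukin genes *Il1a*, *Il1b*, *Il1rn*, *Il6*, *Il10*, *Il12b*, *Il15* and *Il18*, the tumor necrosis factor gene *Tnf*, and *Acod1*, which encodes the enzyme that makes itaconate. The genes were taken by symbol as a fixed list of 10 from the 39186 genes of the deposited table, and all 10 had reads in all 4 samples. The samples were sorted LSK cells (lineage negative, Sca-1 positive, c-Kit positive) from FLs of C57BL/6 mice, 2 *Pich*-KO and 2 *Pich*-WT. The *Pich*-KO mice carry a small deletion in the second exon of *Pich* (*Ercc6l* in the table), an X-linked gene that encodes a DNA translocase of the anaphase ultrafine bridges, in every cell of the embryo. The methods of the study place FL cell sorting at mid-gestation, and the lineage antibodies named there (CD4, CD8, Gr-1, B220 and Ter119) include none against F4/80, a macrophage antigen. The labels do not say whether an FL or a pool of FLs made up a sample, so a p-value measured only the spread between these samples.

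Inflammatory cytokines are made mostly by macrophages, other myeloid cells and activated stromal cells when pattern recognition receptors sense microbes or misplaced nucleic acid. Their genes are induced within hours by NF-kB, AP-1 and interferon regulatory factors, and many of their mRNAs carry AU-rich elements that mark them for rapid decay. IL-1 alpha, IL-1 beta, TNF, IL-6 and interferons also act on hematopoietic stem cells themselves, where acute exposure drives cell division and myeloid output. The comparison of *Pich*-KO with *Pich*-WT LSK cells therefore asks which of these ligands were transcribed in the sorted fraction and which were not.

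The samples held between 14703215 and 20933919 reads on genes, and 1 read was worth between 0.782 and 1.14 normalized counts. *Ercc6l* had 1142 and 1232 normalized counts in *Pich*-KO against 772.1 and 661 in *Pich*-WT, which checks nothing, since a small deletion leaves most of the mRNA to be counted. *Pich*-WT sample 2 had no reads on 4 Y-linked genes, where the other samples had 1607 to 2848, so the sexes of the embryos were not balanced between the groups. The markers of the sorted cells were present in every sample, with 2328 to 4447 normalized counts of *Kit* and 901 to 3586 of *Ly6a*, the Sca-1 gene. Markers of FL macrophages were also present, and the 12 genes of the macrophage list summed to 55455 and 56359 normalized counts in *Pich*-WT and to 9132 and 7915 in *Pich*-KO. In RNA from a whole sorted fraction, fewer cells of a type and less RNA per cell cannot be told apart.

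Of the 10 genes, 4 fell and 1 rose in *Pich*-KO LSK cells. The 4 that fell were *Il1a*, *Il1b*, *Il18* and *Il1rn*, that is, every member of the IL-1 family on the list, and *Il6* was the gene that rose. The differences of *Tnf*, *Il15*, *Il10*, *Il12b* and *Acod1* did not pass the test. Calls were made by limma on log2(normalized count + 1) over 32428 genes, at a Benjamini-Hochberg adjusted p of 0.05 over all of them. By the same call, 7.58% of all genes tested were higher and 9.6% were lower, 17.2% in either direction. The median log2 fold change (*Pich*-KO minus *Pich*-WT) was -0.99 over the 10 genes and 0.02 over all genes tested.

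The groups did not overlap for 6 of the 10 genes, with both *Pich*-KO samples above both *Pich*-WT samples for 1 gene and below them for 5. Over all genes tested these shares were 28.9% above and 27.2% below, 56.1% in either direction, so a lack of overlap was common and the counts of the list lie close to it for either direction together. With 2 samples a group, an exact permutation test cannot give a p under 0.333, and the calls rest on the spread that limma shares across genes. Without a variance trend in limma, and also without any 1 of the 4 samples, no gene of the table was called.

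**Figure D1:**
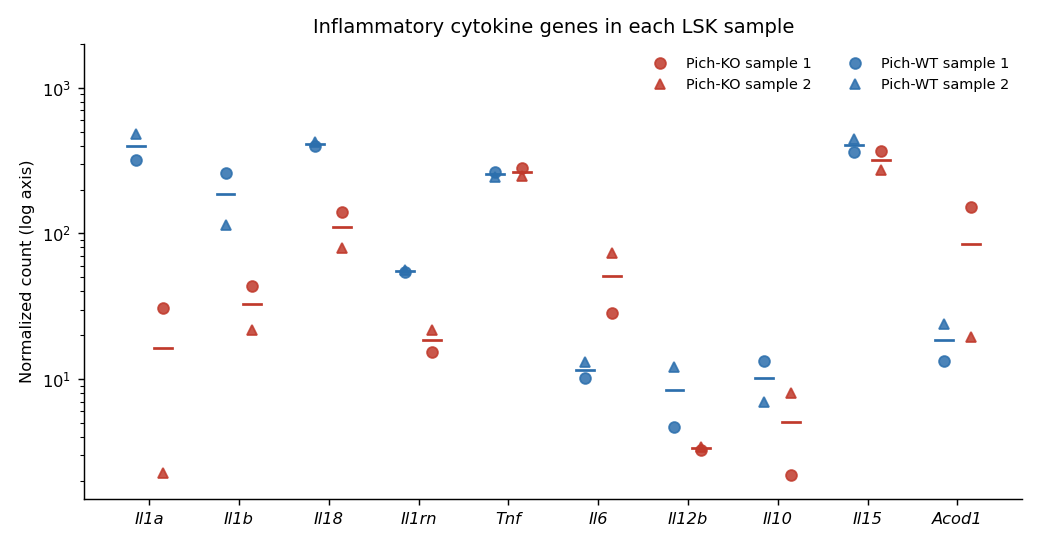
Normalized read counts (log axis) of the 10 genes in each LSK sample, with *Pich*-WT samples in blue, *Pich*-KO samples in red and a line at each group mean. *Il1a*, *Il1b*, *Il18* and *Il1rn* lie lower in both *Pich*-KO samples, *Il6* lies higher in both, and *Tnf* lies between 245 and 281 in all 4 samples.

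The sequences just upstream of 6 of these genes are shown because they differ in the motifs that inflammatory factors bind, while their mRNAs fell, rose or did not pass the test. Each is the 250 bases before a RefSeq start in GRCm38.p6, 5′ to 3′ on the strand of the gene. Of the 10 genes, 8 had an entry. *Il1a*, *Il1b* and *Il18* stand for the genes that fell, *Il6* for the gene that rose, *Tnf* for a gene whose groups overlapped, and *Acod1* for a gene that was high in 1 *Pich*-KO sample. Capitals mark matches on either strand to motifs of NF-kB (GGG, any 2 bases, then TTTCC), AP-1 (TGANTCA), C/EBP (TTGCNNAA), the interferon response element (GAAA, any 2 bases, then GAAA), ETS factors (AGGAAGT) and the TATA box (TATAAA).
Il1a, chr2:129309973-129310222, minus strand: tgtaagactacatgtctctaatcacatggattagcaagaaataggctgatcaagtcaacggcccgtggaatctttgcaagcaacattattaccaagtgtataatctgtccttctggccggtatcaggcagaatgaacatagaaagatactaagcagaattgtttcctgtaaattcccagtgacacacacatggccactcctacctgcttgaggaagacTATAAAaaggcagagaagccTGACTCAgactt
Il1b, chr2:129371140-129371389, minus strand: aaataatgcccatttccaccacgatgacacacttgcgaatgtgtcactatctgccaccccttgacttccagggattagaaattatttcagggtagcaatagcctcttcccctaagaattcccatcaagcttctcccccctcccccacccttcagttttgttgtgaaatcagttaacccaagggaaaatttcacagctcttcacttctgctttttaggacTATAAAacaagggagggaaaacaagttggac
Il18, chr9:50554450-50554699, plus strand: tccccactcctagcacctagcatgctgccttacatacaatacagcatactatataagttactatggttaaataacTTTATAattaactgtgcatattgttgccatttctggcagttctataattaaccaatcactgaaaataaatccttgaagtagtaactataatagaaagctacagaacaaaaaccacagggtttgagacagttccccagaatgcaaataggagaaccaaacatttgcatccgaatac
Il6, chr5:30012864-30013113, plus strand: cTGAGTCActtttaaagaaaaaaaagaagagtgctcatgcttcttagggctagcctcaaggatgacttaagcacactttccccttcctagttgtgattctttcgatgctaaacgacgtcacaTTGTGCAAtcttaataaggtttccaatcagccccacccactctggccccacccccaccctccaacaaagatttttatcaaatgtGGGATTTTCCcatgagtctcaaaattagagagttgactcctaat
Tnf, chr17:35202008-35202257, minus strand: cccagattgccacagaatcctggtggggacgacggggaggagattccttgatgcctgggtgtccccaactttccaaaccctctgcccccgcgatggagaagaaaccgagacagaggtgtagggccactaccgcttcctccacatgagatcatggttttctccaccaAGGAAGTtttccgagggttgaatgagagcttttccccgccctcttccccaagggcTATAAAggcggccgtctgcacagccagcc
Acod1, chr14:103046762-103047011, plus strand: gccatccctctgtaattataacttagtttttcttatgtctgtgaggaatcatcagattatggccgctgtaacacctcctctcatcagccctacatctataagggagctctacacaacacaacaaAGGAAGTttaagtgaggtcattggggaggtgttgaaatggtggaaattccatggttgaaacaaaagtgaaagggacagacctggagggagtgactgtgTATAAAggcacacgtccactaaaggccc

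A TATA box on the coding strand ended 27, 26, 24 and 23 bases before the start of *Il1a*, *Il1b*, *Tnf* and *Acod1*. That of *Il18* was a match on the other strand, 175 to 170 bases before the RefSeq start. Over 32851 promoters of the same length, 12.4% held this motif on either strand at any position, so this is not the share with a box placed so. The *Il6* window held a match to NF-kB at 44 to 35 bases, to C/EBP at 128 to 121 bases and to AP-1 at 249 to 243 bases before the start. These motifs occurred in 1.41%, 9.56% and 6.75% of all the promoters. *Il1a* held an AP-1 match at 12 to 6 bases before its start. *Il1rn* has 3 RefSeq starts, and its windows, not shown, held an AP-1 match at 141 to 135 bases and an NF-kB match at 51 to 42 bases before a start. *Tnf* and *Acod1* each held an ETS match, a motif found in 7.69% of promoters, and none of the windows of the list held the interferon response element, found in 2.98%. A match describes letters and not a bound factor, and a window without one says nothing about that factor. The RefSeq starts of *Il18*, *Acod1* and *Il1rn* are not the gene starts of the table.

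*Il1a* encodes IL-1 alpha, an alarmin that signals through the IL-1 receptor, and it showed the largest difference of the list. The gene spans chr2:129299610-129309972 on the minus strand (GRCm38). It had 30.5 and 2.27 normalized counts in *Pich*-KO samples 1 and 2, against 321 and 479 for the *Pich*-WT pair. Both *Pich*-WT samples lay far above both *Pich*-KO samples, while the *Pich*-KO samples differed 13.4-fold from each other. The group means were 16.4 ± 20 against 400 ± 112 (SD, n = 2 each), or 24.4-fold lower in *Pich*-KO. The log2 fold change was -5.27 with an SE of 0.88 (limma, adjusted p = 0.00491). *Pich*-KO sample 2 held 2 reads of the gene, and over both groups, 30 against 890 reads gave a ratio of 0.0428 with an exact 95% interval of 0.0287 to 0.0615 that covers counting error only. The log2 fold change was -6.91 without *Pich*-KO sample 1 and -3.64 without *Pich*-KO sample 2.

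*Il1b* encodes IL-1 beta, which is made as an inactive precursor and cut by caspase-1. It is the neighbour of *Il1a*, at chr2:129364570-129371139 on the same strand, and 54.6 kb separate the 2 genes. Its normalized counts were 43.6 and 21.6 in *Pich*-KO against 258 and 115 in *Pich*-WT. The *Pich*-WT samples differed 2.24-fold, and the lower of them was still above both *Pich*-KO samples. The means were 32.6 ± 15.6 and 186 ± 101 (SD, n = 2 each), 5.72-fold lower in *Pich*-KO, with a log2 fold change of -2.45, an SE of 0.47 and an adjusted p of 0.00887 (limma). With 1 sample left out it ran from -3.03 to -1.87.

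*Il18* encodes IL-18, another cytokine matured by caspase-1 and an inducer of interferon gamma. It lies at chr9:50554827-50581840 on the plus strand. It had 140 and 79.6 normalized counts in *Pich*-KO against 400 and 427 in *Pich*-WT, so the *Pich*-WT samples were close together and far above the others. The mean of 110 ± 42.5 in *Pich*-KO was 3.77-fold lower than that of 414 ± 19 in *Pich*-WT (SD, n = 2 each). Its log2 fold change of -1.96 had an SE of 0.28 and the lowest adjusted p of the 10 genes, 0.00227 (limma), and was -2.36 to -1.56 with 1 sample left out.

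*Il1rn* encodes the IL-1 receptor antagonist, which binds the IL-1 receptor without signalling. The gene at chr2:24336853-24351494 on the plus strand had 15.3 and 21.6 normalized counts in *Pich*-KO against 53.9 and 56 in *Pich*-WT. Here too the groups were apart, and the order of the *Pich*-KO samples was opposite to that of *Il1a*, *Il1b* and *Il18*. The means were 18.4 ± 4.47 and 55 ± 1.47 (SD, n = 2 each), 2.98-fold lower in *Pich*-KO, and the log2 fold change was -1.55 with an SE of 0.38 (limma, adjusted p = 0.0257). It was -1.78 to -1.31 with 1 sample left out. Ligands and the antagonist of the IL-1 receptor were therefore lower in the same samples.

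*Il6* encodes IL-6, which acts through gp130 and STAT3. The gene at chr5:30013114-30019981 on the plus strand had 28.4 and 73.9 normalized counts in *Pich*-KO against 10.2 and 13 in *Pich*-WT. These stand for 26, 65, 13 and 13 reads, so the *Pich*-WT level was low and *Pich*-KO sample 2 was 2.61-fold above *Pich*-KO sample 1. The means were 51.1 ± 32.2 and 11.6 ± 2.01 (SD, n = 2 each), 4.41-fold higher in *Pich*-KO. The log2 fold change was 1.91 with an SE of 0.53 (limma, adjusted p = 0.0436). The call was near the threshold, and the adjusted p was 0.0723 with a pseudocount of 0.1 and 0.0999 with no filter on the mean. Without *Pich*-KO sample 2 the log2 fold change was 1.23.

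*Tnf* encodes TNF, the membrane-bound and shed ligand of the TNF receptors. It lies at chr17:35199381-35202007 on the minus strand and had 281 and 248 normalized counts in *Pich*-KO against 266 and 245 in *Pich*-WT. All 4 samples lay within a narrow range and the groups overlapped. The means were 265 ± 23.8 and 255 ± 14.6 (SD, n = 2 each), with a log2 fold change of 0.05 and an SE of 0.19 (limma, adjusted p = 0.903). From 476 reads against 585, the ratio of *Pich*-KO to *Pich*-WT was 1.03 with an exact 95% interval of 0.913 to 1.17 for counting error. Its sign was not fixed, at -0.04 without *Pich*-KO sample 1 and -0.01 without *Pich*-WT sample 2.

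*Il12b* and *Il10* stood at the limit of detection. *Il12b* encodes the p40 chain shared by IL-12 and IL-23 and lies at chr11:44400063-44414033. It had 3.27 and 3.41 normalized counts in *Pich*-KO against 4.69 and 12 in *Pich*-WT, from 3, 3, 6 and 12 reads. *Il10*, the gene of the main anti-inflammatory cytokine at chr1:131019845-131024974, had 2.18 and 7.96 in *Pich*-KO against 13.3 and 7 in *Pich*-WT. The groups overlapped for *Il10* and just missed each other for *Il12b*. The log2 fold changes were -0.99 with an SE of 0.69 for *Il12b* (limma, adjusted p = 0.415) and -1.0 with an SE of 0.72 for *Il10* (limma, adjusted p = 0.436). The read ratios had exact 95% intervals of 0.137 to 1.11 and 0.195 to 1.06, so both intervals hold 1 and neither gene was shown to differ or to be equal.

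*Il15* encodes IL-15, which sustains NK and memory T cells and is presented in trans on its receptor alpha chain. The gene at chr8:82331632-82403222 on the minus strand had 366 and 274 normalized counts in *Pich*-KO against 361 and 444 in *Pich*-WT. *Pich*-KO sample 1 lay within the *Pich*-WT range, and only *Pich*-KO sample 2 lay below it. The means were 320 ± 65.4 and 403 ± 58.7 (SD, n = 2 each), and the log2 fold change of -0.34 with an SE of 0.21 did not pass the test (limma, adjusted p = 0.349). From 577 reads against 906, the ratio was 0.808 with an exact 95% interval of 0.727 to 0.898. That interval does not hold 1, but it covers counting error only and not the spread between samples.

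*Acod1*, at chr14:103046977-103056573 on the plus strand, encodes aconitate decarboxylase, which turns the citrate cycle intermediate aconitate into itaconate in activated macrophages. It had 151 and 19.3 normalized counts in *Pich*-KO against 13.3 and 24 in *Pich*-WT. *Pich*-KO sample 1 alone was high, 7.79-fold above *Pich*-KO sample 2, which lay within the *Pich*-WT range. The means were 84.9 ± 92.8 and 18.6 ± 7.58 (SD, n = 2 each). The log2 fold change of 1.55 had an SE of 0.84 and did not pass (limma, adjusted p = 0.278). It was 3.0 without *Pich*-KO sample 2 and 0.10 without *Pich*-KO sample 1. DESeq2 on the recovered reads called it at an adjusted p of 0.0119, although 1 sample carried the difference. From 155 reads against 41, the ratio was 4.8 with an exact 95% interval of 3.38 to 6.94, again for counting error only.

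**Figure D2:**
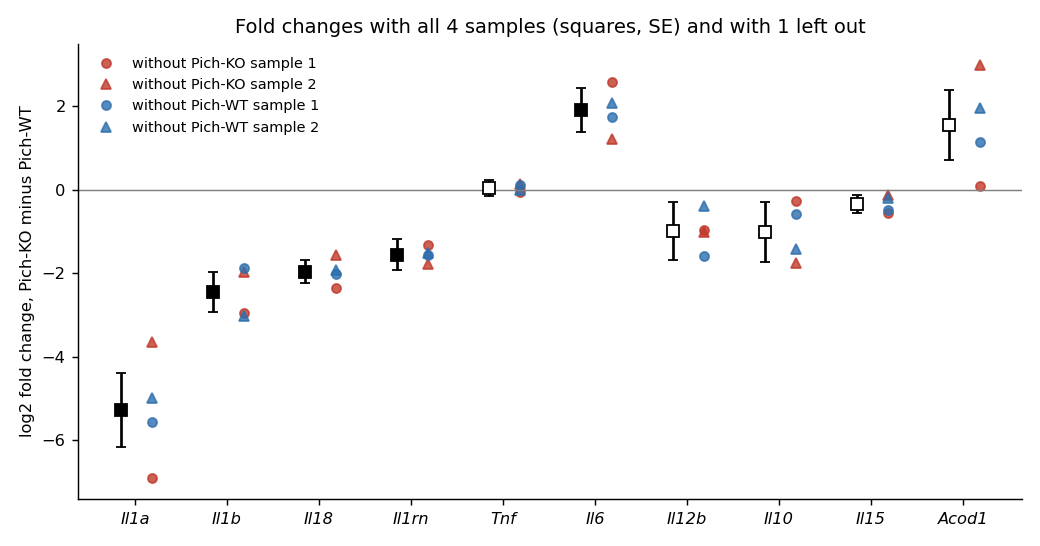
Log2 fold change (*Pich*-KO minus *Pich*-WT) of each gene with all 4 samples (squares, filled where called at an adjusted p of 0.05, bars for the SE) and with 1 sample left out (colored points). *Il1a*, *Il1b*, *Il18*, *Il1rn* and *Il6* kept their sign whichever sample was left out, while *Acod1* fell to 0.10 without *Pich*-KO sample 1.

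The order of the genes by level changed with the genotype. On the scale of normalized counts per kilobase of gene length in the table, *Il18* led in *Pich*-WT with a mean of 401, above the range of every other gene of the list. *Il1a* followed at 203 and *Il15* at 178, with *Tnf* at 156, and neighbours among these 3 overlapped between samples. *Il1b*, at 97.8, lay below *Tnf* and above the other 5 without overlap. The remaining genes, *Il1rn*, *Il10*, *Acod1*, *Il6* and *Il12b*, had levels between 4.24 and 9.93 per kilobase, each overlapping the next.

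In *Pich*-KO, *Tnf* led at 161 per kilobase, followed by *Il15* at 142 and *Il18* at 106, and neighbours among them overlapped. *Acod1* at 32.4, *Il6* at 21.1, *Il1b* at 17.1, *Il1a* at 8.31, *Il10* at 3.87 and *Il1rn* at 3.33 each overlapped the next in that order. *Il12b* had the lowest mean at 1.7 and overlapped *Il1a* and *Il10*, and *Il1a* lay below it in *Pich*-KO sample 2. Among all 32428 genes tested, the level of *Il1a* per kilobase moved from percentile 85.3 in *Pich*-WT to 55.8 in *Pich*-KO. That of *Il18* moved from percentile 91.4 to 79.8, and *Tnf* stood at 82.6 and 83.7. *Il6* moved from percentile 46.5 to 65.4.

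The 2 *Pich*-KO samples did not rank alike across the list. *Pich*-KO sample 1 was the higher of the 2 for 6 genes, among them *Il1a*, *Il1b*, *Il18* and *Acod1*. *Pich*-KO sample 2 was the higher for 4, among them *Il6*, *Il1rn* and *Il10*. Beside these values, the 20 interferon response genes summed to 67887 and 38535 normalized counts in *Pich*-KO samples 1 and 2, against 9433 and 10690 in *Pich*-WT. The 12 monocyte and neutrophil markers summed to 61009 and 108721 in *Pich*-KO against 21582 and 22809 in *Pich*-WT. The myeloperoxidase gene *Mpo* gave most of the *Pich*-KO sums, and the other 11 genes summed to 6362 and 18229 against 11231 and 10276, so *Pich*-KO sample 1 lay below and sample 2 above *Pich*-WT. Of the 12, *Mpo* and *Ly6c2* rose, *Ccr2* and *Itgam* fell and 8 were not called, with a median log2 fold change of -0.25. The shares of all genes tested were 7.58% higher and 9.6% lower. The part of either list in the differences between the *Pich*-KO samples was not tested.

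Macrophages are the main known source of several of these cytokines in FL, and their markers were lower in *Pich*-KO by more than most of the cytokines. All 12 genes of the macrophage list fell, where 9.6% of all genes tested fell, with a median log2 fold change of -4.84. Their sum was 6.56-fold lower, but *Csf1r*, which fell only 2.51-fold, made up most of the sum in *Pich*-KO. *Adgre1*, which encodes F4/80, had 273 and 205 normalized counts in *Pich*-KO against 6617 and 6927 in *Pich*-WT, and *C1qa*, a complement gene of resident macrophages, had 73.1 and 68.2 against 3625 and 3540. The scavenger receptor gene *Vsig4* was at 0 in *Pich*-KO sample 2. *Il1a*, *Il1b*, *Il18* and *Il1rn* were lower in the same group as these markers, while *Tnf* and *Il15* were not called. Between the *Pich*-KO samples, *Il1a* differed 13.4-fold, where the macrophage sums were 9132 and 7915. The part of macrophages in the fall of these genes was not tested.

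The cytokines were also set against the macrophage list. Division by a sum 6.56-fold lower in *Pich*-KO raises any gene that fell by less, so this restates the fold changes on another scale. Per 1000 normalized counts of that list, *Il1a* stood at 3.34 and 0.287 in *Pich*-KO against 5.79 and 8.5 in *Pich*-WT, still lower in *Pich*-KO. *Il1b* stood at 4.78 and 2.73 against 4.65 and 2.04, and these ranges overlapped. *Il18* was higher on this scale, at 15.3 and 10.1 against 7.22 and 7.58. *Il1rn* was also higher, at 1.67 and 2.73 against 0.972 and 0.994. *Tnf* was at 30.8 and 31.3 against 4.79 and 4.35, and *Il15* at 40.1 and 34.6 against 6.51 and 7.88. *Il6*, *Acod1* and *Il12b* were higher on this scale in both *Pich*-KO samples, and *Il10* overlapped. *Csf1r* made up most of the list's sum in *Pich*-KO, with 7268 and 6111 normalized counts, and fell least of the list. Its share was smaller in *Pich*-WT, at 16306 and 17259, so the ratios lean on this gene. With *Csf1r* left out of the sum, *Il1a* overlapped between the groups, and *Il1b* and *Il10* were higher in both *Pich*-KO samples. The ratios describe the samples and were not tested.

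Other cell types moved as well, and the counts below stand beside 9.6% of all genes tested that fell and 7.58% that rose. The 6 endothelial markers all fell, from sums of 28294 and 19049 normalized counts in *Pich*-WT to 2390 and 1449 in *Pich*-KO, with a median log2 fold change of -4.15. The 6 erythroid markers all fell, from 140459 and 104594 to 23954 and 26361. Of 7 dendritic cell markers 3 fell, with sums of 4023 and 2633 in *Pich*-KO against 5469 and 5423 in *Pich*-WT. Of 9 markers of T, NK and innate lymphoid cells 4 fell, with sums of 1079 and 765 against 1487 and 1778, and *Cd8a* was at 0 in *Pich*-KO sample 1 and *Pich*-WT sample 1. Of 6 hepatocyte markers 3 fell, none of 6 B cell markers was called by limma, and among 6 mast cell and basophil markers 2 rose and 1 fell. Of the 10 LSK markers, *Ly6a* rose and *Slamf1*, *Mecom*, *Hlf* and *Procr* fell. The part of these cell types in the values of the 10 cytokine genes was not tested.

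**Figure D3:**
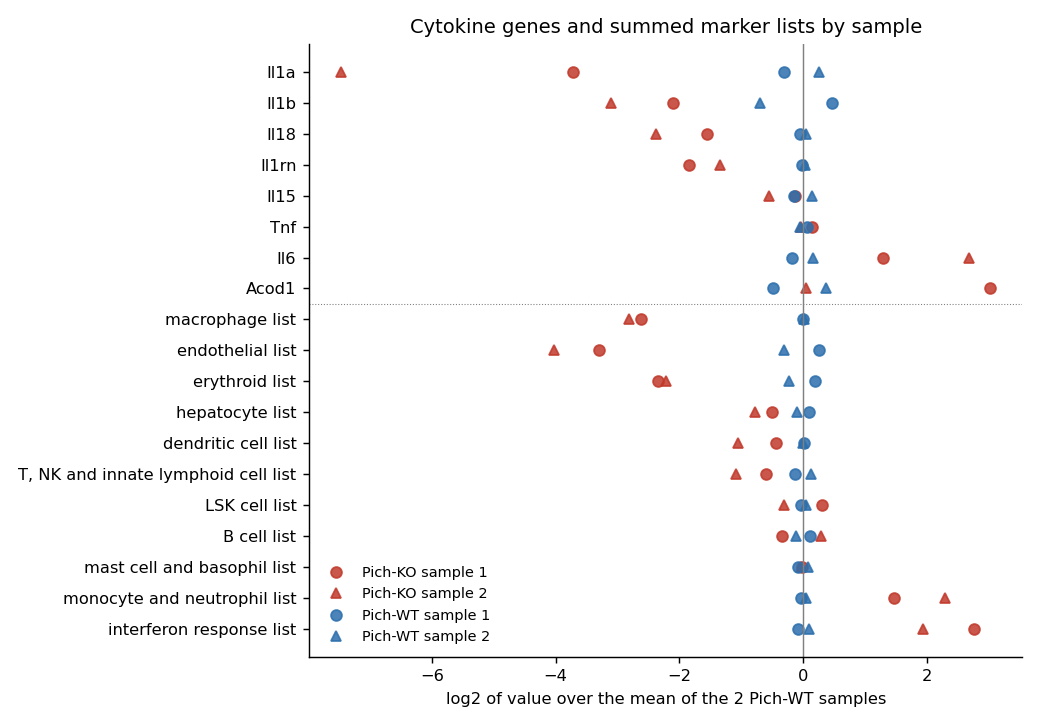
Log2 ratio of each sample to the mean of the 2 *Pich*-WT samples, for 8 genes of the list (above the dotted line) and for the summed marker and interferon response lists (below it). The macrophage, endothelial and erythroid sums lie to the left in both *Pich*-KO samples, as do *Il1a*, *Il1b*, *Il18* and *Il1rn*, while *Il6* and the interferon response sum lie to the right, as does the monocyte and neutrophil sum, which *Mpo* sets.

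Genes that act with the list were read from 7 companion lists. Together they held 123 tested genes, of which 31 (25.2%) rose and 20 (16.3%) fell, with a median log2 fold change of 0.10, beside 7.58% and 9.6% of all genes tested. The interferon response list made up 18 of the 31 that rose, among them *Usp18* and *Ifi44* with log2 fold changes of 4.25 and 4.21 (limma, adjusted p = 0.000113 and 0.000233). *Cxcl10* and *Gbp2* were the 2 of its 20 genes that were not called. Its median log2 fold change was 2.38, while among *Acod1* and the 9 cytokine genes *Il6* was the one that rose.

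Of 19 receptor chains and decoys, 6 (31.6%) fell and 1 (5.26%) rose, with a median log2 fold change of -0.42, where 9.6% of all genes fell and 7.58% rose. *Il18bp*, the soluble decoy that neutralizes IL-18, fell furthest, with 56.7 and 53.4 normalized counts in *Pich*-KO against 797 and 1077 in *Pich*-WT. Its log2 fold change was -4.05 with an SE of 0.22 (limma, adjusted p = 3.95e-05), so both IL-18 and its decoy were lower at the mRNA level. *Il18rap*, the accessory chain of the IL-18 receptor, rose, with 551 and 600 against 327 and 386 normalized counts and a log2 fold change of 0.69 (limma, adjusted p = 0.0241). *Il18r1*, the ligand-binding chain, had 26.2 and 26.1 against 30.5 and 40 and was not called.

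For IL-15, the beta chain fell, and the presenting chain and the common gamma chain did not pass the test. *Il2rb*, the beta chain shared with the IL-2 receptor, fell from 1676 and 2088 normalized counts in *Pich*-WT to 176 and 188 in *Pich*-KO, a log2 fold change of -3.36 (limma, adjusted p = 2.87e-05). *Il15ra*, the presenting chain, had 249 and 190 in *Pich*-KO against 137 and 159 in *Pich*-WT, without overlap, but its log2 fold change of 0.56 did not pass (limma, adjusted p = 0.155). *Il2rg*, the common gamma chain, had a log2 fold change of -0.23 and was not called.

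Receptors for TNF fell although *Tnf* did not pass the test. *Tnfrsf1a* and *Tnfrsf1b*, the TNF receptor genes, had log2 fold changes of -0.91 and -0.68 (limma, adjusted p = 0.000783 and 0.00506). *Il10rb*, a chain of the IL-10 receptor, fell by 0.96 on the log2 scale (limma, adjusted p = 0.00332), and *Sigirr*, a receptor that damps IL-1 family signals, fell by 0.57 (limma, adjusted p = 0.0332, and 0.0598 with no filter on the mean). The IL-1 receptor genes *Il1r1*, *Il1r2* and *Il1rap* had log2 fold changes of -1.06, -0.52 and 0.51 and were not called (limma, adjusted p = 0.0871, 0.354 and 0.2). For IL-6, *Il6ra* had 1180 and 1473 normalized counts in *Pich*-KO against 1477 and 1447 in *Pich*-WT, and the gp130 gene *Il6st* had 826 and 1089 against 941 and 662, both with overlapping groups. Neither was called.

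**Figure D4:**
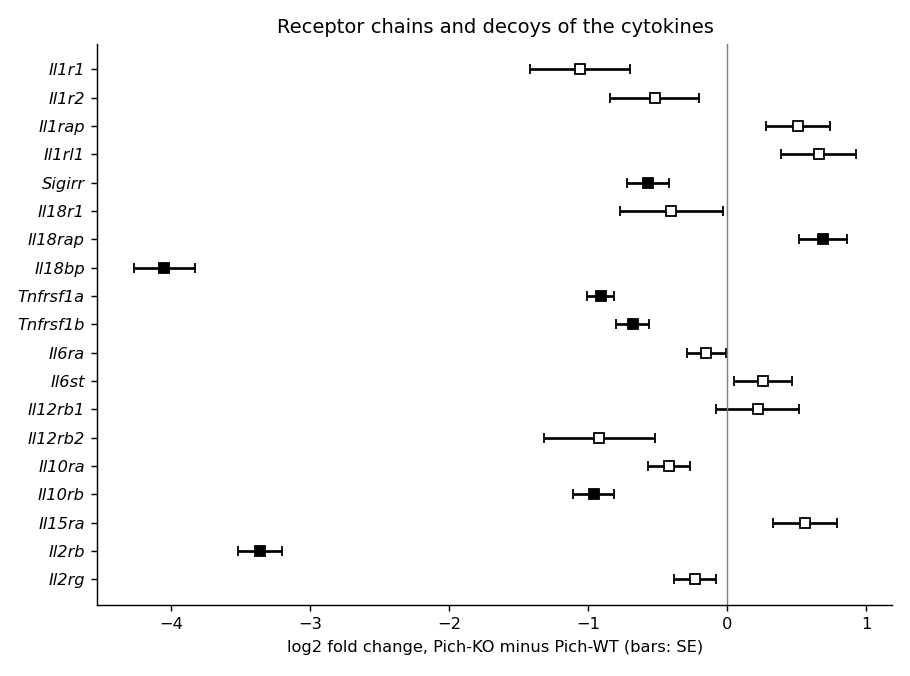
Log2 fold change (*Pich*-KO minus *Pich*-WT) of the 19 receptor chains and decoys, with bars for the SE and filled squares where called at an adjusted p of 0.05. *Il18bp* at -4.05 and *Il2rb* at -3.36 lie far to the left of the other genes, and *Il18rap* is the gene called to the right of 0.

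Of 16 processing genes, whose products cut or release IL-1 beta, IL-18 and TNF, 2 rose and 1 fell, with a median log2 fold change of 0.05. The share called was 18.8%, close to the 17.2% of all genes. *Casp4*, the caspase of the noncanonical inflammasome, rose by 0.77 on the log2 scale (limma, adjusted p = 0.0351), and the inflammasome adaptor gene *Pycard* rose by 0.47 (limma, adjusted p = 0.0486). With no filter on the mean neither call held (adjusted p = 0.0523 and 0.0777, limma), and with a pseudocount of 0.1 *Pycard* was lost at 0.0625. *Ninj1*, which ruptures the plasma membrane in lytic death, fell by 0.49 (limma, adjusted p = 0.0248). *Casp1*, whose protease cuts both IL-1 beta and IL-18, had 592 and 862 normalized counts in *Pich*-KO against 565 and 636 in *Pich*-WT. *Nlrp3* had 165 and 186 against 239 and 180, and the pore-forming gasdermin gene *Gsdmd* had 1213 and 1382 against 1241 and 1184. None of these 3 was called, so *Il1b* and *Il18* fell while the caspase gene that matures them did not pass the test.

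Among 22 signalling genes below these receptors, 6 (27.3%) fell and 1 (4.55%) rose, with a median log2 fold change of -0.28. The shares of all genes tested were 9.6% lower and 7.58% higher. With no filter on the mean, 3 of the 22 fell. *Traf6*, the ubiquitin ligase of IL-1 receptor signalling, rose by 1.21 on the log2 scale, from 360 and 348 normalized counts in *Pich*-WT to 911 and 742 in *Pich*-KO (limma, adjusted p = 0.00169). *Jak2* fell by 2.47 (limma, adjusted p = 0.000459) and *Irak2*, a kinase of the same IL-1 receptor complex, fell by 1.08 (limma, adjusted p = 0.00448). *Socs3*, the feedback inhibitor of IL-6 signalling and a STAT3 target, fell by 1.58, with 188 and 211 normalized counts in *Pich*-KO against 832 and 427 in *Pich*-WT (limma, adjusted p = 0.00826), in the samples where *Il6* rose. *Stat3* had 3749 and 3176 against 3596 and 3524 and was not called.

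The list of proteins that bind cytokine mRNAs held 4 genes (36.4%) that fell and 2 (18.2%) that rose out of 11. Its median log2 fold change was -0.16, and 9.6% of all genes tested fell and 7.58% rose. *Hnrnpd*, *Khsrp* and *Zfp36l1*, which encode AU-rich element binding proteins that promote decay, fell by 1.92, 1.52 and 1.47 on the log2 scale (limma, adjusted p = 0.000133, 0.00019 and 0.00254). *Zfp36*, which encodes tristetraprolin, the decay factor of *Tnf* mRNA, had 11407 and 11889 normalized counts in *Pich*-KO against 17155 and 17353 in *Pich*-WT (limma, adjusted p = 0.000913). *Rc3h1* and *Tial1* rose by 0.66 and 0.64 (limma, adjusted p = 0.021 and 0.0249). *Rc3h1* encodes roquin, which recognizes stem loops in *Tnf* mRNA, and *Tial1* a translational repressor.

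The cytokine mRNAs differ in the AU-rich letters these proteins read. In the 3′ UTRs of GENCODE M21, 8 of the 10 genes held more ATTTA pentamers per kilobase than the median of 1.22 over 18985 tested genes. *Il6* held 6 pentamers in 427 bases, or 14.1 per kilobase, and *Tnf* held 8 in 764 bases, or 10.5 per kilobase. *Il1b*, *Il10*, *Il18* and *Il12b* held 8.71, 8.5, 8.13 and 7.53 per kilobase, while *Il1rn* held none. The longer TTATTTATT was present 5 times in *Tnf* and 1 time in *Acod1*, and 7.24% of the tested genes held it. The value of *Il18* comes from 1 pentamer in 123 bases. Genes with 4 or more pentamers were found among those that fell (*Il1b*), the gene that rose (*Il6*) and those not called (*Tnf*, *Il10*, *Il12b*).

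Of 26 other ligands of the same families, 23 were in the table and 21 were tested, with 1 that rose, 2 that fell and a median log2 fold change of -0.18. The share called was 14.3%, close to that of all genes. The lymphotoxin beta gene *Ltb*, 3.06 kb from *Tnf*, fell from 1137 and 1399 normalized counts in *Pich*-WT to 490 and 214 in *Pich*-KO, by 1.96 on the log2 scale (limma, adjusted p = 0.00569). *Lta*, 1.16 kb from *Tnf* on its other side, had 36 and 31.8 against 35.2 and 42 and was not called. *Ebi3*, a chain of IL-27 and IL-35, fell by 1.21 on the log2 scale (limma, adjusted p = 0.0112, and 0.052 with no filter on the mean). *Lif*, a ligand of the IL-6 family, rose, with 38.2 and 21.6 normalized counts in *Pich*-KO against 0 and 7 in *Pich*-WT (limma, adjusted p = 0.0462). This call was lost with a pseudocount of 0.1 and with no filter on the mean (adjusted p = 0.163 and 0.126, limma). *Osm*, of the same family, had 112 and 288 against 87.5 and 64 and was not called, and *Il12a*, the partner chain of *Il12b* in IL-12, had 765 and 508 against 438 and 383 and was not called.

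The list of genes around itaconate holds citrate cycle enzymes, a citrate carrier and the NRF2 pair *Nfe2l2* and *Keap1*. Of its 14 genes, 6 (42.9%) rose and 1 (7.14%) fell, where 7.58% of all genes rose and 9.6% fell. The median log2 fold change was 0.23. *Idh3a*, *Sdhb* and *Suclg1*, all of the citrate cycle, rose by 0.63, 0.59 and 0.53 on the log2 scale (limma, adjusted p = 0.00243, 0.00244 and 0.00687). *Aco1*, the cytosolic aconitase and iron sensor, fell by 0.75 (limma, adjusted p = 0.00562). *Pich*-KO samples 1 and 2 were close for these 4 genes, in contrast to *Acod1* itself.

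Among 18 neighbouring protein-coding genes that are not on the list, 3 rose and 3 fell, where the shares over all genes were 7.58% and 9.6%. *Ckap2l*, 2.4 kb from *Il1a*, fell by 0.58 on the log2 scale (limma, adjusted p = 0.0219, and 0.0579 with no filter on the mean). *Sdhd*, 14.5 kb from *Il18*, rose by 0.65 (limma, adjusted p = 0.00164), while *Il18* fell. *Psd4*, 16.1 kb from *Il1rn*, rose by 0.55 (limma, adjusted p = 0.0197, and 0.0579 with no filter on the mean), and *Mapkapk2*, a kinase gene 28.7 kb from *Il10*, fell by 1.52 (limma, adjusted p = 0.00222). The genes on both sides of *Il6*, *Dnajb6* and *Tyms*, had log2 fold changes of 0.14 and 0.09 and were not called.

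The genes most like each cytokine over the 4 samples were found by the distance between log2(normalized count + 1) values centred on the gene mean, among 16278 genes with a mean of at least 10. For *Il6* the nearest were *Hspa1a*, a heat shock gene, at a distance of 0.13, *Gm17275* at 0.22 and the nuclear RNA *Neat1* at 0.23. *Hspa1a* had 1045 and 2790 normalized counts in *Pich*-KO against 408 and 561 in *Pich*-WT, and *Neat1* had 3467 and 7376 against 1329 and 1650, so both were highest in *Pich*-KO sample 2. Within a distance of 0.5 of *Il6* lay 21 genes. For *Il18* the nearest was *Entpd1*, the gene of the ectonucleotidase CD39, at 0.08, and 329 genes lay within 0.5.

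*Il1a* and *Acod1* had no gene within 0.5. The nearest to *Il1a* was *Colec12*, a scavenger receptor gene with 96 and 17.1 normalized counts in *Pich*-KO against 1621 and 1592 in *Pich*-WT, at 0.73. The nearest to *Acod1* was the interferon-induced gene *Ifit3b*, with 345 and 107 against 60.2 and 79, at 0.92, followed by *Apod* at 0.93 and *Iigp1*, another interferon-induced gene, at 0.97. *Il1b* was nearest to *Runx1t1* at 0.17, with 35 genes within 0.5, and *Il1rn* to *Tnnt2* at 0.08, with 333. *Tnf* and *Il15* had patterns shared by many genes, with 5511 and 2671 within 0.5. Each distance rests on 4 samples and describes these patterns only.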

How the data were processed

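RNA of sorted FL LSK cells was sequenced for 2 *Pich*-KO and 2 *Pich*-WT samples. The deposited values are a signal the authors made from reads on each gene, divided by a size factor per sample relative to *Pich*-WT sample 2. Reads recovered from them were whole for 100% of values within 0.01. The authors' deposited log2 fold changes and p-values of their own comparison were not used. The submitters' processing notes name Bowtie 0.12.2, mm8 and mm9, whereas gene coordinates in the table matched GRCm38 for 97.8% of 39131 genes found in GENCODE M21. The counter is not given in the sources used here.

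Normalized counts were tested with limma 3.58.1 in R 4.3.3 on log2(value + 1), for genes whose mean reached 1, with a variance trend and Benjamini-Hochberg adjustment over 32428 genes. Fold changes on this scale understate those of low genes. Other settings were no variance trend, a replicate block, a pseudocount of 0.1, all genes with reads, genes with at least 10 reads in every sample, edgeR 4.0.16 with TMM or upper-quartile scaling and DESeq2 1.42.0 on the recovered reads, and leaving out each sample. Intervals of read ratios are exact and cover counting error only. The procedure was tested on simulated data.

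The 10 genes and all companion and marker lists were chosen with earlier results of these data known. From each companion list the text names up to 3 called genes a direction with the largest and smallest changes. It also names the receptor chains and the IL-18 decoy, with *Casp1*, *Nlrp3* and *Gsdmd*, then the nearest genes by pattern and position. *Cxcl10*, *Gbp2*, *Stat3*, *Lta*, *Osm*, *Il12a*, *Zfp36*, *Mpo*, *Ly6c2*, *Ccr2*, *Itgam* and the marker genes given with values were named after their values were seen. *Il1f10*, *Il20* and *Il9* were not analysed here. The values of 1 companion gene are not reported here.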

Additional observations from a re-analysis of the deposited data

How the results depend on the processing

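The 5 calls among the 10 genes rest on limma's shared variance and on both samples of each group. Over all genes, limma called 2459 higher and 3113 lower, and the 7 other settings that used 4 samples with a variance trend or a count model gave 1840 to 3165 higher and 2326 to 3874 lower. With no variance trend, 0 genes were called higher and 0 lower over all genes, with 0 and 0 among the 10 genes and 0 and 0 among the 123 companion genes, although 7377 genes, 5 of the 10 and 40 of the 123 had an unadjusted p under 0.05. Leaving out any 1 sample gave 0 to 0 calls in each of these counts by limma, with 5757 to 8599 genes, 1 to 5 of the 10 and 42 to 68 of the 123 at an unadjusted p under 0.05. Such a fit keeps 1 sample in a group, which is assumed to vary like the other group, and fewer samples are its own construction. The *Tnf* log2 fold change of 0.05 ran from -0.04 to 0.14 with 1 sample left out and reversed to -0.04 without *Pich*-KO sample 1 and to -0.01 without *Pich*-WT sample 2. Among the companion and neighbouring genes named in the text, *Lif* and *Pycard* were lost with a pseudocount of 0.1, and these with *Casp4*, *Ebi3*, *Sigirr*, *Ckap2l* and *Psd4* with no filter on the mean.

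The count of the 10 genes that rose was 1, and it was 0 with a pseudocount of 0.1 and 0 with no filter on the mean, where *Il6* was lost at an adjusted p of 0.0723 and 0.0999 (limma). It was 2 with DESeq2, where *Acod1* joined *Il6*, and 1 with edgeR under either scaling. The cause was not tested. The count that fell was 4 in each of these, and 3 of 7 genes tested with at least 10 reads in every sample, where *Il1a* was left out. Over the settings that kept 4 samples, adjusted p ranged from 1.61e-15 to 0.156 for *Il1a*, 2.05e-08 to 0.162 for *Il1b* and 2.03e-09 to 0.118 for *Il18* (limma at both ends). It ranged from 0.00693 to 0.11 for *Il1rn* and 0.00269 to 0.189 for *Il6* (limma at both ends). All the lowest came from the replicate block, which rests on a replicate number alone, and all the highest from the fit without a variance trend. *Il10* and *Il12b* were not fitted with edgeR or at 10 reads, and with DESeq2 they were fitted but had no adjusted p.

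The samples share only a replicate number. Deviations of same-numbered samples correlated at 0.0117 over 11794 genes whose mean reached 50. With a replicate block, 3122 genes were higher and 3874 lower, and 2 of the 10 rose and 4 fell, *Acod1* being added at an adjusted p of 0.02 (limma).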
